A study of Homo sapiens with 12 samples.

Results

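The bone morphogenetic protein (BMP) and TGF-beta pathway was followed through 9 of the 770 genes of a NanoString panel: the ligands BMP4 and TGFB1, the type II receptor BMPR2, the type I receptors ACVR1, ACVRL1 and ACVR1C, the shared mediator SMAD4, and the targets ID1 and ID2. They were taken by name and all 9 were found in each of the 3 deposited tables. The set had been chosen by the ratios and p-values of these same comparisons, which were known beforehand, so the values of the 9 genes below are a description and are not a test of the pathway. The cells were HCT-116, an established human colorectal carcinoma line grown as epithelial cells, and all groups were this 1 line. The groups were cells labelled Control, cells given heteronemin, cells given tetrac, and cells given both (Heteronemin+Tetrac), with 3 samples in each. Treatment was 24 h in the treated groups, and no time is given for the control cells. Heteronemin is a sesterterpenoid of marine sponges, and tetrac is a deaminated analogue of thyroid hormone. The sources used here give neither the doses nor what the control cells received.

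Ligands of this family bind a pair of type II and type I receptors, which are serine/threonine kinases. The activated type I receptor phosphorylates receptor SMAD proteins, and these enter the nucleus with SMAD4. BMPs signal mainly through SMAD1, SMAD5 and SMAD9, TGF-beta and activins mainly through SMAD2 and SMAD3. The ID genes, which encode proteins that bind and block basic helix-loop-helix transcription factors, are classical targets of the BMP arm. In the intestine, BMP signalling is known for its gradient along the crypt, where it opposes WNT signalling and stem cell renewal. HCT-116 is known to be mismatch-repair deficient and to lack a working TGF-beta type II receptor.

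The authors deposited for each gene the group mean of normalized counts. The lowest mean of any gene was 33, taken here as a floor. Each table also gave a p-value against control to 2 decimals. A gene is called changed here where that p was under 0.05, without adjustment. Single samples were not analysed here, so the values carry no SD and the raw depth is unknown. The labels do not state if the 3 samples per group are separate cultures, and the p-values therefore cover the spread of these samples alone, which could be technical. A smaller amount of a transcript per cell and fewer cells that express it cannot be told apart. Of 12 listed epithelial markers, 7 were measured, none at the floor in any group, and their means summed to between 5443 and 6201 over the 4 groups. KRT7 was close to the floor in control, at 34.09, and stood at 83.71 with heteronemin. Single markers went both ways after heteronemin, with EPCAM from 1814.19 to 1402.5 and CLDN3 from 135.11 to 178.47. Of 21 markers of endothelial, blood and fibroblast cells, 10 were measured. Of these, 7 were at the floor in control, and their sum was 364.7 in control, 601.9 with heteronemin, 446.8 with tetrac and 513.4 with both. The highest control mean among these 10 was 67.15. Genes with a control mean under 100 rose in general, with median log2 ratios of 0.65, 0.30 and 0.33 in the same order of treatments. Whether the cell types changed was not tested, and neither was the part of these markers in the results.

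The promoters of BMP4, BMPR2, ID1 and ID2 are shown first, because these 4 had the largest falls among the 9 genes after heteronemin. RefSeq entries on GRCh38.p14 matched 8 of the 9 genes, and ACVRL1 had no entry in the table used. Each line gives the 250 bases before the start, 5′ to 3′ on the strand of the gene. BMP4 has several listed starts and the most upstream is shown, chr14:53955051-53955300 on the minus strand. BMPR2 lies at chr2:202376077-202376326, ID1 at chr20:31605039-31605288 and ID2 at chr2:8681806-8682055, all on the plus strand. In BMP4 and BMPR2, capitals mark matches to CAGAC, to GGCGCC and to GCCGNCGC on either strand, letters reported to bind SMAD proteins. In ID1 and ID2, capitals mark the longest run that their windows share.
BMP4: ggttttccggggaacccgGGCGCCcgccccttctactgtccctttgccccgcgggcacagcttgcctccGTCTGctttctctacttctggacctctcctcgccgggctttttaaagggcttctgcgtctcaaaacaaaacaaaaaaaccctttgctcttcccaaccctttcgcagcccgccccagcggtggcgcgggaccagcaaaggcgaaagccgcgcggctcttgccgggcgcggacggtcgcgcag
BMPR2: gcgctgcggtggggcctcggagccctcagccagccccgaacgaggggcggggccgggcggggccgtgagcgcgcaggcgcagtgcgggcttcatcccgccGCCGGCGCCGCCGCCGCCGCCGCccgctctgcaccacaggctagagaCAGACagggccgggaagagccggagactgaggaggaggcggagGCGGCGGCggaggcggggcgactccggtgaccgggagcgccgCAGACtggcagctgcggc
ID1: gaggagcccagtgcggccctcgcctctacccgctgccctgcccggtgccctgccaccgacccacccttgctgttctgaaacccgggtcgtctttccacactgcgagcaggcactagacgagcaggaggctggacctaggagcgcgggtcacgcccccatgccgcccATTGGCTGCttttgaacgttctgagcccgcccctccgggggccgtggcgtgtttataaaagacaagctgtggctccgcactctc
ID2: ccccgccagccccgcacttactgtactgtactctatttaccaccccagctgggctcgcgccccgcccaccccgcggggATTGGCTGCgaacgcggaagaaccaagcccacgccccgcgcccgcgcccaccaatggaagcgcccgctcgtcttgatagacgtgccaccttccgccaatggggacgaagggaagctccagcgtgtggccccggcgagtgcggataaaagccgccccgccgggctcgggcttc

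In these windows, the most upstream BMP4 start had 1 match to GGCGCC, 232 bases before the start, and 1 to CAGAC on the reverse strand, 181 bases before it. No other listed BMP4 start held GGCGCC or GCCGNCGC, and only the most downstream of them held CAGAC. The start used in these cells was not determined. BMPR2 had 2 matches to CAGAC, 1 to GGCGCC and 6 to GCCGNCGC. Most of the GCCGNCGC matches overlap each other in a GC-rich repeat. Those that begin 150 and 144 bases before the start also overlap the GGCGCC match. Of 35116 promoter windows of this length, 38.0% held CAGAC, 16.4% held GGCGCC and 12.9% held GCCGNCGC. ID1 and ID2 held none of the 3, which says only that these letters are not in these windows. Among the genes not shown, the most upstream ACVR1 start held CAGAC and GGCGCC, and SMAD4 held GGCGCC. Their log2 ratios after heteronemin were -0.09 and -0.19. TGFB1 and ACVR1C held none of the 3. The run shared by ID1 and ID2 was ATTGGCTGC, 9 bases long, which contains the inverted CCAAT box. It began 84 bases before the ID1 start and 172 bases before the ID2 start, and 1.08% of all windows held it on either strand. This run was looked for after the sequences had been seen. A match is a description of the sequence and was not set against any binding data.

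BMP4, ID1 and ID2 shared a pattern over the 4 groups: high in control and after tetrac, low after heteronemin and after the combination. BMP4, a secreted ligand of the BMP arm, had an authors' mean of 3561 in control, 1550 with heteronemin, 3219 with tetrac and 1423 with both. These are 43.5%, 90.4% and 40.0% of the control mean. The p-value of BMP4 in the authors' deposited table was 0.01 for heteronemin, 0.47 for tetrac and 0 as printed for the combination. BMP4 had the lowest log2 ratio of all 770 genes under the combination (-1.32) and the second lowest after heteronemin (-1.20). After tetrac its ratio of -0.15 was the 140th from the bottom.

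**Figure D1:**
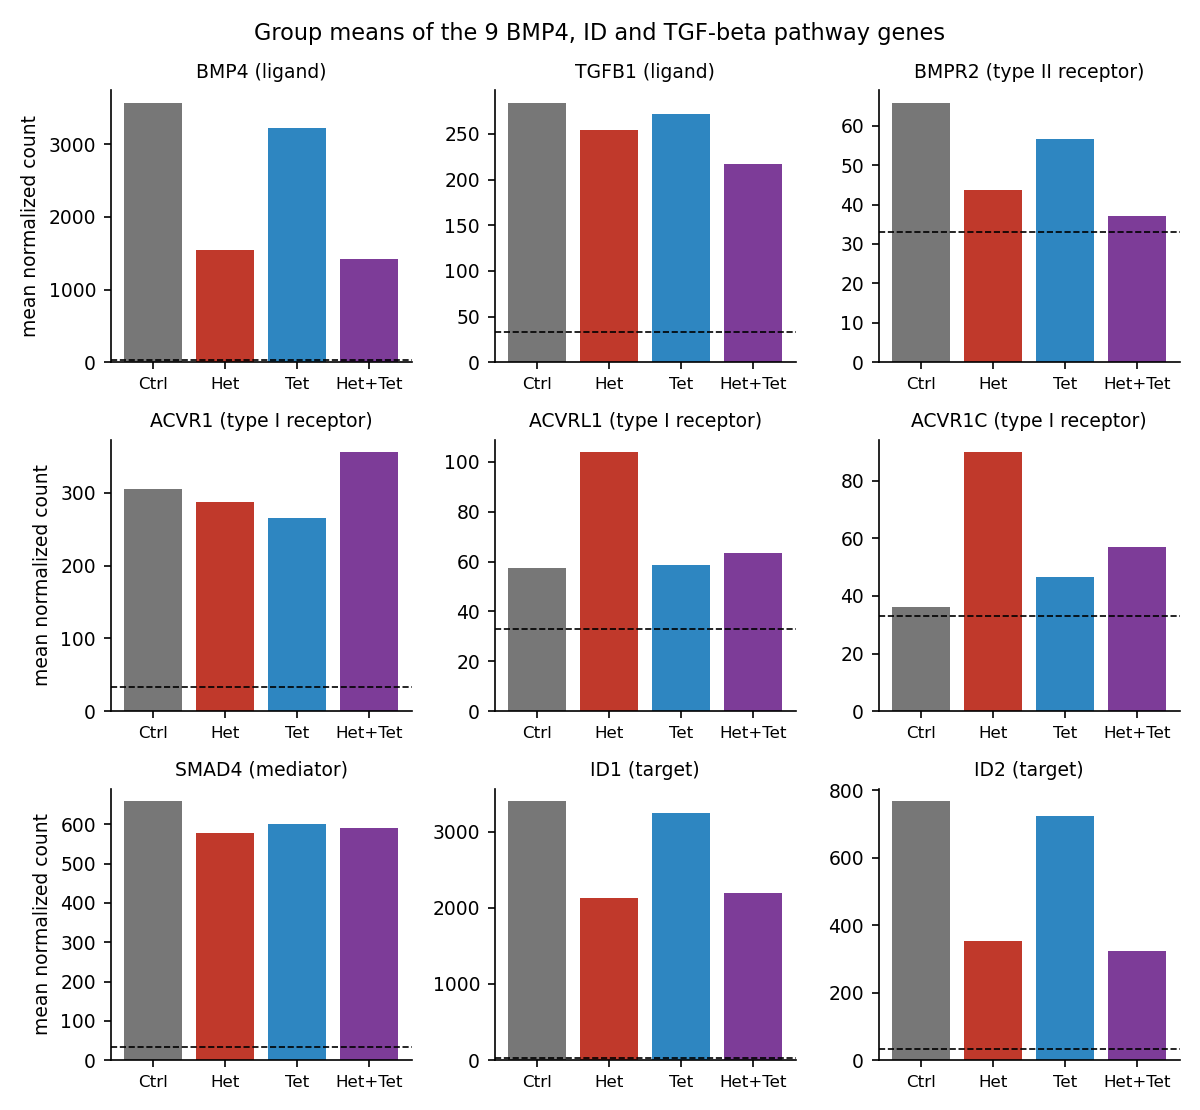
Group means of normalized counts of the 9 genes (bars, each panel with its own axis from 0; Ctrl, control; Het, heteronemin; Tet, tetrac; the dashed line is the floor of 33). BMP4, ID1 and ID2 have short bars after heteronemin and the combination, while ACVRL1 and ACVR1C are highest after heteronemin alone, at 103.7 and 89.8.

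TGFB1 encodes the other ligand, transforming growth factor beta-1. Its authors' mean was 283 in control, 255 with heteronemin, 271 with tetrac and 217 with both. In the authors' deposited table its p was 0.06, 0.30 and 0.02 in that order, so the fall was called under the combination only; whether it differed from heteronemin alone was not tested. The combination value was 76.5% of control, a much smaller fall than that of BMP4.

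The 2 targets fell with BMP4. ID2 had an authors' mean of 766 in control, 352 with heteronemin, 723 with tetrac and 323 with both. It was 2.18-fold lower after heteronemin and 2.37-fold lower under the combination, the fourth lowest and the second lowest log2 ratio of the panel. Its p in the authors' deposited table was printed as 0 for both, and as 0.62 for tetrac. ID1 had an authors' mean of 3395 in control, 2128 with heteronemin, 3239 with tetrac and 2196 with both. It was 1.60-fold lower after heteronemin (p = 0.02 in the authors' deposited table) and 1.55-fold lower under the combination (p printed as 0 in the authors' deposited table). ID1 thus kept a larger share of its control mean than ID2, 62.7% against 45.9% after heteronemin and 64.7% against 42.2% under the combination; that difference was not tested. ID4, another ID gene on the panel, was no member and is named after its values were seen. Its authors' mean was 45.6 in control, 103.8 with heteronemin, 57.6 with tetrac and 64.6 with both, near the floor, and it was not called (p = 0.07, 0.69 and 0.43 in the authors' deposited table). Averaged over ID1 and ID2, the log2 ratio was -0.90 after heteronemin, -0.08 after tetrac and -0.94 under the combination. The average of both ligands was -0.68, -0.10 and -0.86.

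The receptors did not move as a block. BMPR2, the type II receptor for BMPs, had an authors' mean of 65.7 in control, 43.6 with heteronemin, 56.6 with tetrac and 37.1 with both. It was 1.51-fold lower after heteronemin and 1.77-fold lower under the combination, with p = 0.03 and p = 0.02 in the authors' deposited table. Its control mean was 1.99 times the floor, so these ratios could not fall much further, and the last mean is close to the floor itself. Most genes of a low level had ratios on the other side: of the 427 genes with a control mean under 100, 341 lay above their control mean after heteronemin and 312 under the combination, with median log2 ratios of 0.65 and 0.33.

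ACVRL1 and ACVR1C were called higher after heteronemin. ACVRL1 encodes ALK1, a type I receptor best known from endothelial cells, and ACVR1C encodes ALK7, a type I receptor for nodal and activins. The authors' mean of ACVRL1 was 57.3 in control, 103.7 with heteronemin, 58.5 with tetrac and 63.3 with both. That of ACVR1C was 36.3, 89.8, 46.6 and 57.1 in the same order, from 1.10 times the floor in control. Their p for heteronemin in the authors' deposited table was 0.04 and 0.03. Under the combination neither was called, with p = 0.63 and p = 0.14 in the authors' deposited table, and their means were lower than after heteronemin alone by log2 ratios of -0.71 and -0.65, or -0.37 and -0.08 after level correction; these differences between treatments were not tested. The median log2 ratio after heteronemin was 0.65 over the 427 genes with a control mean under 100. ACVRL1 stood at 0.86 and ACVR1C at 1.31. Taken relative to the median of their 51 neighbours in mean level, the log2 ratio after heteronemin was -0.01 for ACVRL1, where the sign turns, and 0.06 for ACVR1C. That mean level includes the heteronemin group, so the neighbours include genes that were placed there by their own rise. A value near 0 therefore cannot show if these rises were usual.

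ACVR1, the type I receptor ALK2, which binds BMPs, had an authors' mean of 305 in control, 287 with heteronemin, 266 with tetrac and 355 with both. None of the 3 comparisons was called, with p = 0.22, 0.35 and 0.16 in the authors' deposited table. Its order differed from that of BMP4, ID1 and ID2, since the combination had the highest mean. SMAD4, the mediator that joins both arms, had the narrowest range of the 9 genes: 658 in control, 577 with heteronemin, 602 with tetrac and 591 with both, so that its highest mean was 1.14 times its lowest. It was called lower after heteronemin (p = 0.04 in the authors' deposited table) at a log2 ratio of -0.19. The median of the 147 genes with a control mean of 500 or more was -0.37, and against its neighbours in level it lay at 0.13.

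Counted together, 5 of the 9 genes were called lower after heteronemin (BMP4, BMPR2, SMAD4, ID1 and ID2) and 2 higher (ACVRL1 and ACVR1C). Over all 704 genes with a p-value in that comparison, 15.9% were called lower and 11.2% higher. After tetrac 0 of the 9 were called in either direction at the authors' unadjusted p, against 0.980% of 714 genes called lower and 0.280% higher. Under the combination 5 were called lower (BMP4, TGFB1, BMPR2, ID1 and ID2) and 0 higher, against 14.1% and 8.16% of 686 genes. Since the members were chosen on these comparisons, nothing is read from the shares. The median log2 ratio of the 9 genes was -0.19, -0.08 and -0.39 for heteronemin, tetrac and the combination, beside 0.11, 0.02 and 0.09 over all 770 genes.

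**Figure D2:**
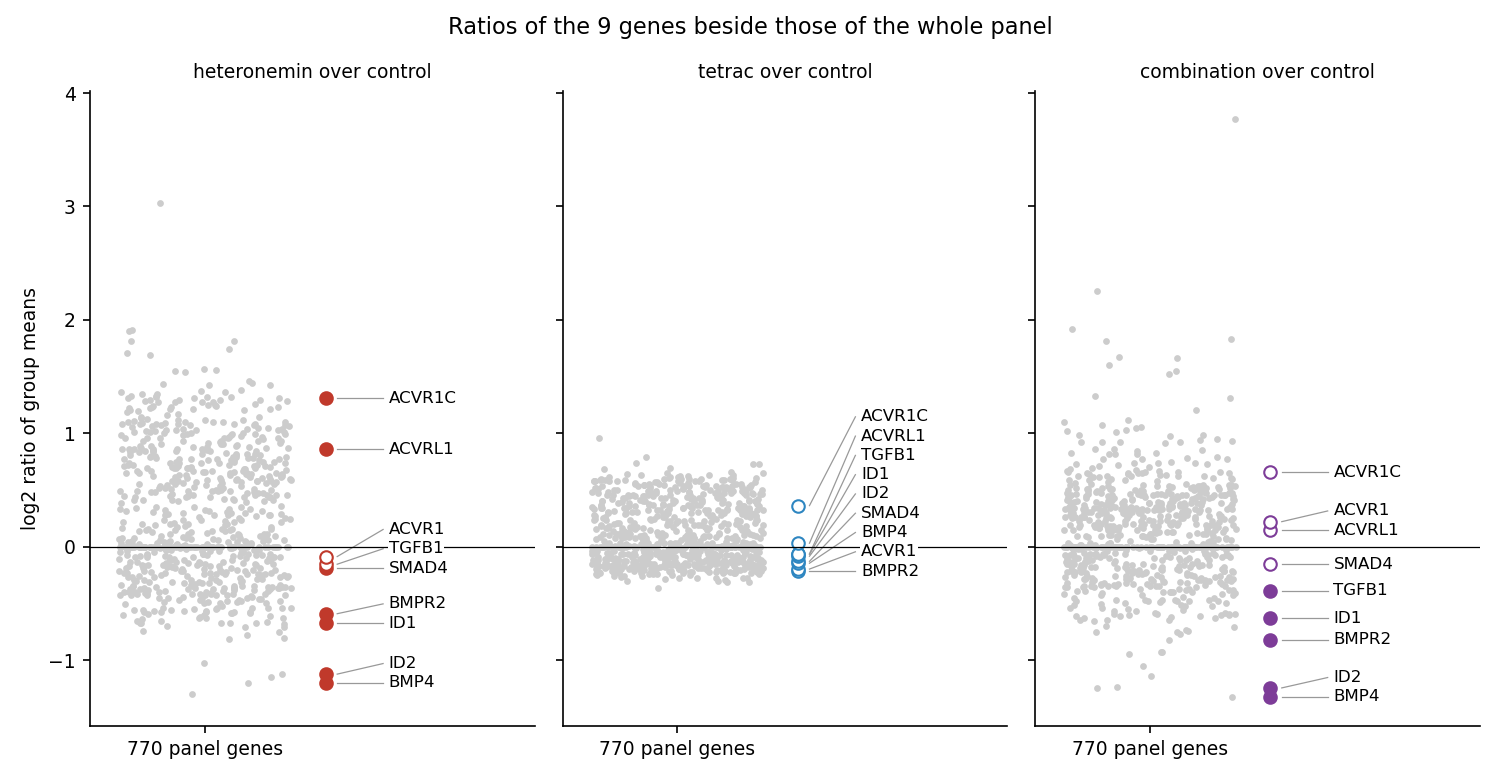
Log2 ratio of each treated group mean over the control mean (vertical axis) for all 770 genes (grey points, spread sideways for visibility) and the 9 genes (coloured circles; filled where the p in the authors' deposited table was under 0.05). BMP4 and ID2 lie at the lower edge of the panel after heteronemin (-1.20 and -1.12) and under the combination (-1.32 and -1.25), and no circle is filled after tetrac.

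The ratios have to be read beside the level of a gene. After heteronemin the median log2 ratio was -0.21 over the 343 genes with a control mean of 100 or more, and it was -0.16 under the combination and -0.11 after tetrac. Genes at the floor numbered 279 in control, 70 with heteronemin, 61 with tetrac and 90 with both. Against the 51 genes nearest in level, BMP4 still lay at -0.80 after heteronemin and -1.03 under the combination, and ID2 at -0.81 and -1.05. ID1 lay at -0.26 and -0.33, closer to genes of like level, and TGFB1 at -0.02 and -0.28. BMPR2 lay at -1.68 and -1.36, among neighbours with ratios mostly above 0. After tetrac, BMP4, ID1 and ID2 lay at 0.02, 0.10 and 0.06, at or slightly above genes of their level. All log2 ratios of BMP4, ID1 and ID2 after heteronemin and under the combination kept their sign with each other scaling tried.

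**Figure D3:**
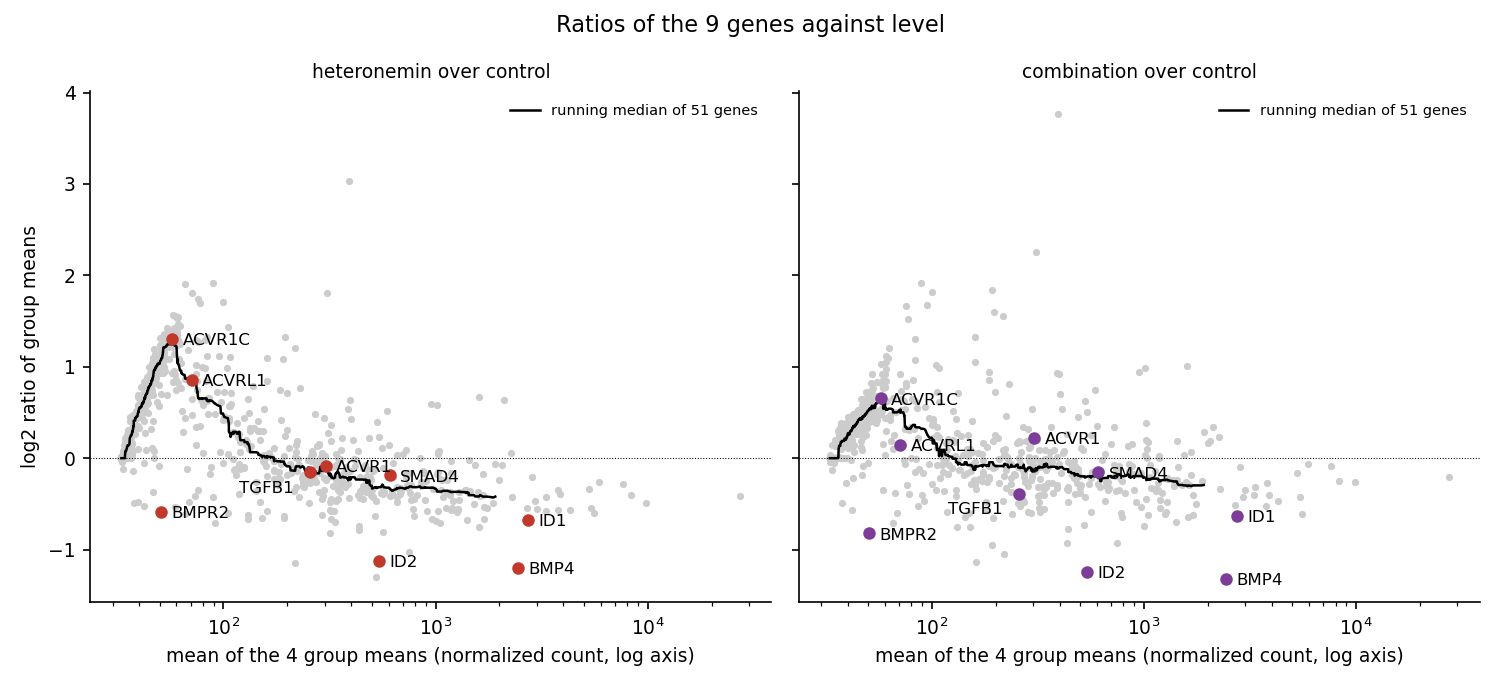
Log2 ratio over control (vertical axis) against the mean of the 4 group means (normalized count, log axis) for 770 genes (grey) and the 9 genes (coloured), with a running median of 51 genes (black line). BMP4, ID2 and BMPR2 lie well below the line in both comparisons, while ACVR1C and ACVRL1 lie on or near it after heteronemin. At the level of BMPR2 the line itself lies above 0. Genes near BMPR2 include some placed there by their own rise, since the level includes the treated groups. The distance of BMPR2 from the line is therefore no measure of its fall.

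The table gives no test between the treatments, and the comparisons with control share the control samples. Set side by side, tetrac added to heteronemin left BMP4 and ID2 each at a log2 ratio of -0.12 to heteronemin alone, ID1 at 0.05 and SMAD4 at 0.03. The ratio was -0.23 for both TGFB1 and BMPR2, 0.31 for ACVR1, -0.71 for ACVRL1 and -0.65 for ACVR1C. Level correction turned BMPR2 to 0.29, against neighbours that include genes placed at its level by their own rise. Heteronemin added to tetrac gave -1.18 for BMP4, -1.16 for ID2, -0.56 for ID1 and -0.61 for BMPR2. The combination was also set against the product of the single ratios, where 0 means that the log2 ratios add up. That value was 0.02 for BMP4, -0.04 for ID2, 0.11 for ID1, -0.02 for BMPR2, -0.17 for TGFB1 and 0.16 for SMAD4. It was 0.51 for ACVR1, -0.74 for ACVRL1 and -1.02 for ACVR1C. These values depended on the scaling. After division by the panel sum they were -0.18 for BMP4, -0.24 for ID2, -0.09 for ID1 and -0.22 for BMPR2. After level correction they were -0.27, -0.26, -0.18 and 1.05 for the same genes, and -0.07 for ACVRL1 and 0.12 for ACVR1C. The corrected values of BMPR2, ACVRL1 and ACVR1C rest on neighbours of this kind, so their size cannot be read. ACVR1 stayed above 0, at 0.30 by panel sum and 0.41 by level correction. Without values per sample, no error can be put on any of these.

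Other genes of the pathway were then taken from a list of 75 genes, of which 44 were measured, including the 9. Of the other 35, 4 were called lower after heteronemin and 3 higher, among 33 with a p-value; under the combination 6 were lower and 3 higher, among 32. These are 12.1% and 9.09%, beside 15.9% and 11.2% of all genes, and 18.8% and 9.38%, beside 14.1% and 8.16%. After tetrac 0 of 32 were called. The median log2 ratio of the 35 was 0.42 after heteronemin, 0.10 after tetrac and 0.15 under the combination. Of the 44 listed genes, 24 had a control mean under 100, and their median was 0.61 after heteronemin and 0.32 under the combination. Over the 20 listed genes with a control mean of 100 or more, 6 of the 9 among them, it was -0.20 after heteronemin and -0.28 under the combination.

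Of the receptor SMADs, SMAD1 and SMAD2 were called lower. SMAD1, of the BMP arm, went from an authors' mean of 395 in control to 284 after heteronemin and 299 under the combination, both called, with p printed as 0 in the authors' deposited table. SMAD2, of the TGF-beta arm, went from 946 to 714 and 727 and was called under the combination (p = 0.01 in the authors' deposited table) but not after heteronemin (p = 0.07 in that table). SMAD5 (log2 ratios of -0.41 and -0.28) and SMAD3 (-0.20 and -0.04) were not called. In the authors' deposited table p was 0.05 and 0.09 for SMAD5, and 0.07 and 0.78 for SMAD3. The p of 0.05 is rounded and lies at the threshold, so rounding could decide that call. SMAD9, named here after its values were seen, lay on the other side near the floor, with an authors' mean of 44.2 in control, 85.8 with heteronemin and 49.1 with both, and was not called (p = 0.13 and 0.73 in the authors' deposited table). The ubiquitin ligase gene SMURF2, whose product marks SMADs and receptors for degradation, was 1.34-fold lower after heteronemin. The median of the 147 genes with a control mean of 500 or more, -0.37, is close to the heteronemin values of SMAD2 (-0.41) and SMURF2 (-0.42).

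Among receptors and ligands outside the 9, TGFBR2, the TGF-beta type II receptor gene, was 1.29-fold lower after heteronemin and 1.21-fold lower under the combination. BMPR1A, a type I receptor for BMPs, was not called, with log2 ratios of 0.20 and -0.16. BMP7, another BMP ligand, went from an authors' mean of 70.9 in control to 48.9 after heteronemin and 55.7 under the combination, both called. Its control mean was 2.15 times the floor, which limits what can be read from this fall, as for BMPR2. AMH, the anti-Müllerian hormone gene, rose 1.71-fold after heteronemin from an authors' mean of 50.5, a low level at which most genes had ratios above 0. GDF15, a distant and stress-responsive member of the family, rose 1.98-fold under the combination, to an authors' mean of 1479. It was not called after heteronemin (p = 0.06 in the authors' deposited table), where its mean was 1119 against 748 in control.

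Extracellular regulators went both ways. FSTL1, a secreted follistatin-like protein, was 1.30-fold lower and LTBP4, which holds latent TGF-beta in the matrix, 1.26-fold lower under the combination. THBS1, thrombospondin-1, which can activate latent TGF-beta, rose 1.49-fold after heteronemin and 1.53-fold under the combination, from an authors' mean of 84.6 to 125.8 and 129.1. The median log2 ratios of genes with a control mean under 100 were 0.65 and 0.33, beside 0.57 and 0.61 for THBS1. The rise of THBS1 stood beside the called fall of TGFB1 under the combination and of TGFBR2 in both, and a link was not tested. The endosomal anchor ZFYVE16 was not called, with log2 ratios of -0.11 and -0.12.

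**Figure D4:**
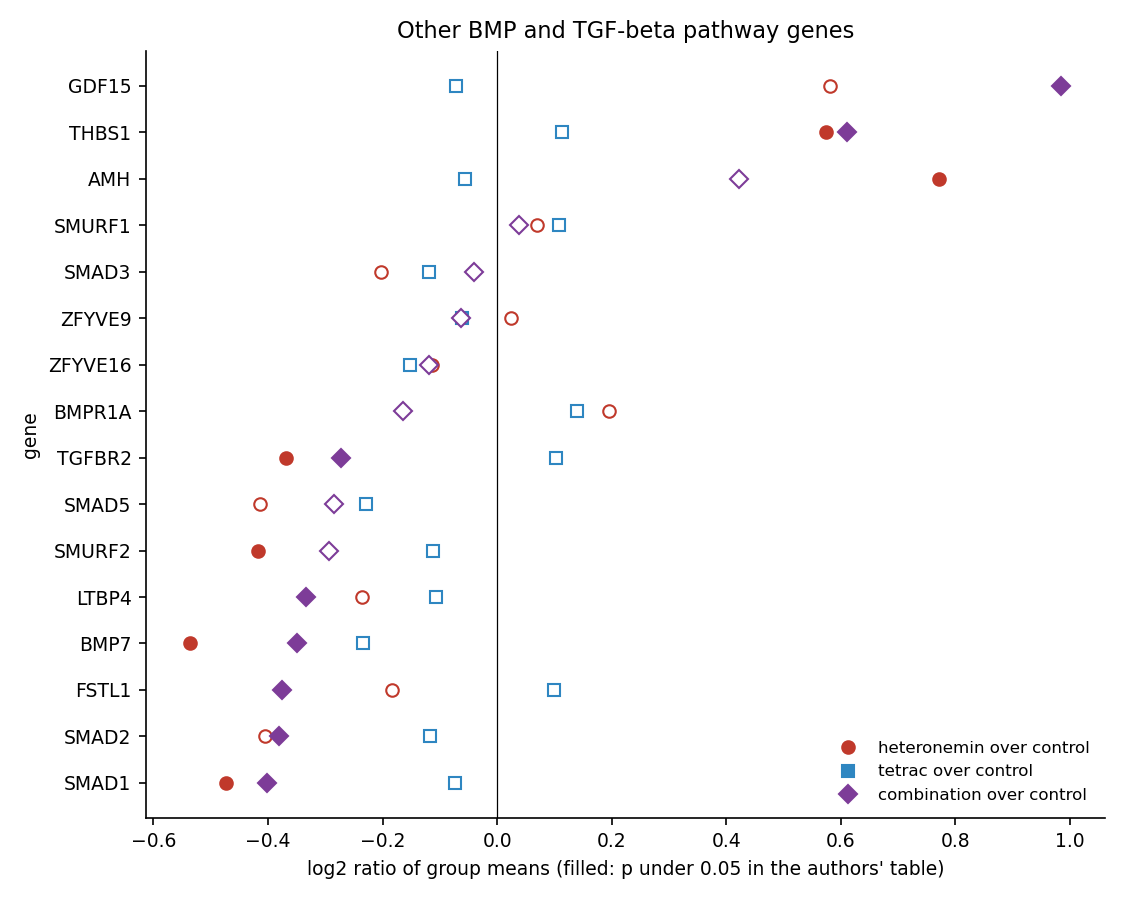
Log2 ratio over control (horizontal axis) of 16 other pathway genes, each called in at least 1 comparison or with a control mean of 100 or more (circles, heteronemin; squares, tetrac; diamonds, combination; filled where the p in the authors' deposited table was under 0.05). SMAD1, TGFBR2 and BMP7 are filled on the lower side after heteronemin and the combination, THBS1 on the higher side, and no square is filled.

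The genes of most like pattern were found by the distance between log2 group means, each centred on its own average, over the 4 groups and among 317 other endogenous genes with a control mean of 100 or more. Nearest to BMP4 was ID2, at a distance of 0.06. Next came JAG1, a Notch ligand, at 0.16 and CTSH, a lysosomal cysteine protease, at 0.29, and both were also the next nearest to ID2, at 0.18 and 0.27. JAG1 had an authors' mean of 782 in control, 319 with heteronemin, 651 with tetrac and 332 with both. ID1 was farther from ID2 (0.54) and BMP4 (0.59) than from PTTG1, the securin gene, at 0.06, CD24, a cell surface glycoprotein gene with near-identical copies in the genome, at 0.07, and KDM1A, a histone demethylase gene, at 0.10. PTTG1 had an authors' mean of 2026, 1203, 1890 and 1295 in the order control, heteronemin, tetrac and combination. BMPR2, whose control mean was too low for this ranking, was at 0.22 from ID1. From BMP4 the other members lay farther away than ID1: BMPR2 at 0.60, TGFB1 at 0.95, SMAD4 at 1.09, ACVR1 at 1.39, ACVRL1 at 1.73 and ACVR1C at 2.06. With 4 group means per gene, a small distance describes these means only.

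**Figure D5:**
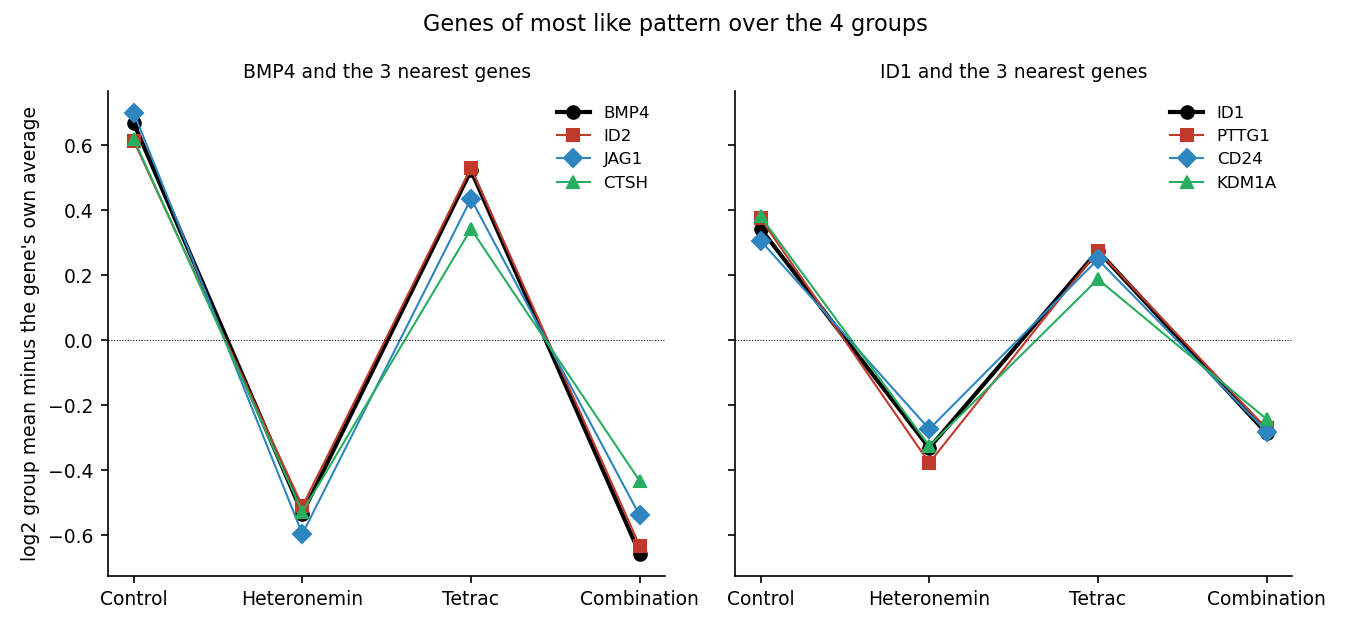
Log2 group means minus the average of the gene (vertical axis) over the 4 groups for BMP4 and its 3 nearest genes (left) and for ID1 and its 3 nearest genes (right). All lines are high in control and tetrac and low in heteronemin and the combination, and ID2 runs nearly on BMP4, at a distance of 0.06.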

How the data were processed

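RNA of 12 HCT-116 samples, 3 per group, was measured with NanoString nCounter and the PanCancer Progression panel; TRIzol was used for extraction, per the labels' protocols. Per the series' design text, raw counts were normalized in nSolver 4.0 with a positive control factor per sample and a biological normalization. The authors deposited 3 tables with a normalized signal (group mean per gene, floor 33), a score (signed fold, within 0.00511 of the quotient of means) and a p-value to 2 decimals, left empty for genes whose 2 means equal the floor. What test gave it is not given in the sources used here.

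Log2 ratios of group means were computed; a call is the authors' unadjusted p under 0.05 over the whole table. The members, the pathway and marker lists and the rules were chosen with earlier results of these data known. Named are the 9 genes, other pathway genes called anywhere, 4 others of highest control mean and the 3 most like genes of BMP4, ID1 and ID2. Of the pathway genes that this rule names, 1 is not reported here, though the counts include it. All 9 symbols are current in the RefSeq table. The counting and the level correction were tested on simulated data. Python 3.11.15, numpy 2.4.6, pandas 2.3.3, scipy 1.17.1 and matplotlib 3.10.9 were used. Alternatives were other scalings, a pseudocount of 20, a control mean minimum of 100, stricter p rules and a fold minimum of 1.5.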

Additional observations from a re-analysis of the deposited data

How the results depend on the processing

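No paired analysis was possible because the tables hold 1 mean per group and no values per sample; for the same reason no replicate could be left out. Called counts are the authors' unadjusted p under 0.05. After heteronemin, the 5 members called lower became 1 (ID2) at p under 0.01 and 1 when the printed p was adjusted by Benjamini-Hochberg over the table; the 2 called higher became 0 under both, and 0 among genes with a control mean of 100 or more. Of the 44 pathway genes, 9 lower became 2 and 2, and 5 higher became 1 and 1; a 1.5-fold minimum left 4 lower and 3 higher, and the control mean minimum left 1 higher. Under the combination, 5 members lower became 3 (BMP4, ID1 and ID2) by either rule, and pathway genes went from 11 lower to 5 and 5, or 4 at 1.5-fold, and from 3 higher to 1 and 1. Benjamini-Hochberg adjustment of the largest p before rounding left 0 in each of these counts. Both adjusted results depend on p being printed to 2 decimals. The genes kept with the printed p were just those whose p was printed as 0, as at p under 0.01. Dividing by the panel sum moved the median of the 9 genes to 0.063 after heteronemin, 0.037 after tetrac and -0.22 under the combination, from -0.19, -0.08 and -0.39; level correction moved the first to -0.017. Directions of called members reversed in 3 cases after heteronemin: SMAD4 at 0.063 by panel sum and 0.13 by level correction, and ACVRL1 at -0.012 by level correction. All 5 members called under the combination kept their direction in the 4 scalings. The floor of 33 limits what can be read for BMPR2, ACVRL1 and ACVR1C.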
